A study of Gallus gallus with 3 samples.

Results

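Solitary peaks of H3K4me3 without H3K27me3 were described on chromosomes 1 to 10 of the chicken, the 10 largest autosomes. H3K4me3 is trimethylated lysine of histone H3 at active or poised promoters, and H3K27me3 is the mark of Polycomb repression. A peak was taken when it was narrower than 2700 bp, shared no base with an H3K27me3 peak and had no other H3K4me3 peak at a gap of 1000 bp or less. Of the 12414 H3K4me3 peaks in the list, 7657 lay on these chromosomes and 4336 met all 3 conditions. Those 4336 peaks are called solitary peaks below. They were chosen by measured values of the same lists, namely width, distance to the next H3K4me3 peak and lack of a shared base with H3K27me3, so these values are given as a description. The score was not used to choose them but comes from the same reads.

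Each list came from 1 library, made from chromatin of wild-type White Leghorn neural tube at stage HH30 with an antibody against H3K4me3 or H3K27me3. An Input, which is chromatin sequenced without immunoprecipitation, completed the 3 samples and is not analysed here. The labels do not state a number of embryos. The tissue mixes progenitors, neurons and other cells, so a peak may come from some of the cells only. With 1 library per mark there was no replicate check and no test. Intervals are 95% intervals, Wilson intervals for shares and exact binomial order-statistic intervals for medians. They cover counting error only and treat neighbouring peaks as independent. The lists hold no read counts, so read depth is unknown, and the mark may be present where no peak was called.

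In vertebrates H3K4me3 is laid down by SET1 and MLL methyltransferase complexes, mainly on the nucleosomes beside the start sites of CpG-rich promoters. Genes used by most cells typically carry a compact H3K4me3 peak and no H3K27me3. H3K27me3 is laid down by Polycomb repressive complex 2, and many developmental regulators carry both marks in embryonic tissue. The large chromosomes of birds are less gene-dense than the small ones and contain long gene-poor stretches. Genes, promoters and sequences could not be assigned to these peaks, since no genome or annotation of the build used, galGal4, was at hand. The peaks are therefore named by position, counting from 1.

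Applied in the order width, H3K27me3 and neighbours, the first condition removed the fewest peaks and the last the most. Of the 7657 H3K4me3 peaks on chromosomes 1 to 10, 366 were 2700 bp or wider. Among the 7291 narrower ones, 1375 shared bases with H3K27me3, and a further 1580 had an H3K4me3 neighbour at 1000 bp or less. The remaining 4336 made up 56.6% of the H3K4me3 peaks on these chromosomes (95% interval 55.5 to 57.7%). The share was highest on chromosome 1, at 61.1% (interval 58.8 to 63.4%), and lowest on chromosomes 9 and 7, at 50.4% (interval 45.2 to 55.6%) and 50.5% (interval 45.7 to 55.2%).

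The values that chose the peaks ran up to each limit. The widest solitary peak spanned 2696 bp on chromosome 1 from 192131257 to 192133952, and the next H3K4me3-only peak beyond the limit was 2700 bp wide, on chromosome 1 from 50784231 to 50786930. Their scores were 3100 and 2022.77. The smallest gap inside the rule was 1003 bp, between 2 solitary peaks on chromosome 3, from 87654187 to 87654988 and from 87655992 to 87656736. The largest gap just outside it was 993 bp, between peaks on chromosome 5 from 57896470 to 57897989 and from 57898983 to 57899731. The closest solitary peak to H3K27me3 lay 53 bp away, while the least overlapped of the excluded peaks, on chromosome 5 from 36249718 to 36251136, shared 1.06% of the length of the shorter peak.

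Solitary peaks were of similar width throughout, a little wider on chromosomes 6 to 10. The median was 1552.5 bp (interval 1539 to 1569 bp; quartiles 1271 and 1885 bp). Widths of 1000 to 1500 bp accounted for 35.3% of the peaks and widths of 1500 to 2000 bp for 36.1%. Below 1000 bp lay 9.96% (432 peaks), and from 2000 bp upwards 18.7% (809 peaks). Chromosomes 6 to 10 together had a median of 1623.5 bp (interval 1587 to 1647 bp), against 1528.5 bp (interval 1510 to 1550 bp) on chromosomes 1 to 5. The intervals of the 2 groups were apart, by a distance that is small beside the quartiles. By chromosome the median was 1538 bp on chromosome 1, 1511.5 bp on 2, 1509 bp on 3, 1542 bp on 4 and 1555 bp on 5. It was 1635 bp on chromosome 6, 1626.5 bp on 7, 1629 bp on both 8 and 9, and 1576 bp on 10. The narrowest peaks were 435 bp on chromosome 7 (21637458 to 21637892), 485 bp on chromosome 3 (95966453 to 95966937) and 489 bp on chromosome 4 (1114946 to 1115434). All 3 scored low, at 75.82, 56.49 and 58.85.

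**Figure D1:**
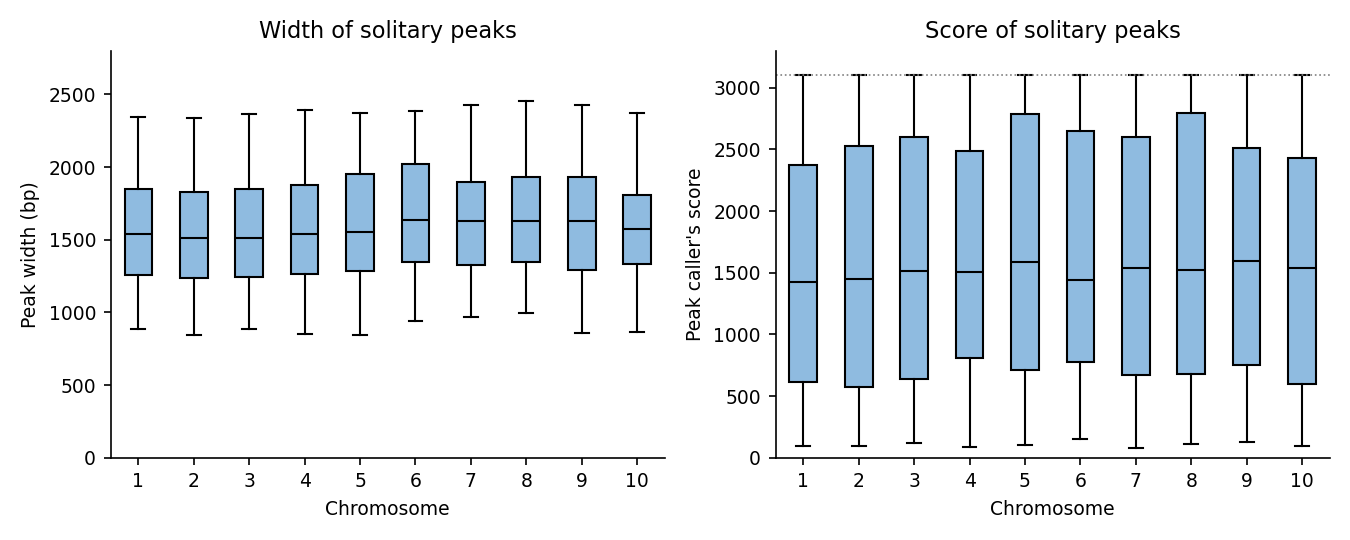
Width in bp (left) and the peak caller's score (right) of the 4336 solitary peaks by chromosome. Boxes show quartiles and medians, whiskers the 5th and 95th percentiles, and the dotted line a score of 3100. Median widths lie between 1509 and 1635 bp and median scores between 1421.43 and 1598.21.

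The score is the authors' value for each peak, given by the peak caller. Its scale is not named in the file, so it ranks peaks within the H3K4me3 list and is not a level of the mark. The median score of solitary peaks was 1491.3 (interval 1439.8 to 1547.1; quartiles 668.3 and 2543.1). Exactly 3100 was given to 613 of them (14.1%; interval 13.1 to 15.2%), and a further 85 (1.96%) scored from 3101.62 to 3233.06. The scale thus does not separate many of the top peaks. Scores below 100, near the lowest value of 50.1, were given to 215 solitary peaks (4.96%; interval 4.35 to 5.65%). Over all 12414 H3K4me3 peaks the shares were 12.1% at exactly 3100, 1.24% above it and 7.65% below 100. Low scores belonged to narrow peaks. The median width was 916 bp for scores below 100, 1060 bp for scores of 100 to 300, 1346 bp for 300 to 1000 and 1535.5 bp for 1000 to 2000. It was 1756 bp from 2000 up to 3100, 2116 bp at exactly 3100, and 1896 bp above 3100. Across the 4336 peaks, width and score had a Spearman correlation of 0.72, given as a description because both come from the same reads.

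The intervals of the median score overlapped between all 10 chromosomes. The lowest median was 1421.43 on chromosome 1 (interval 1312.5 to 1526.4) and the highest 1598.21 on chromosome 9 (interval 1359.7 to 1777.3). Chromosomes 6 to 10 had a median of 1523.6 (interval 1392.9 to 1660.7) and chromosomes 1 to 5 one of 1482.1 (interval 1429.0 to 1543.5). A score of 3100 or more was held by 13.4% of solitary peaks on chromosome 9 (interval 9.18 to 19.2%) and by 19.9% on chromosome 8 (interval 15.3 to 25.5%), the ends of the range. At the very top, 5 peaks shared a score of 3233.06. They lay on chromosome 1 from 81899019 to 81901523, on chromosome 2 from 36398880 to 36400436 and from 50437928 to 50439698, on chromosome 6 from 14450212 to 14451966 and on chromosome 8 from 8012542 to 8014580. These 5 were 1557 to 2505 bp wide, and their nearest H3K27me3 peaks were 58.6 to 927.8 kb away. The lowest score, 50.1, was that of a 580 bp peak on chromosome 4 from 12263648 to 12264227.

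How solitary peaks compared with closely spaced ones depended on width. The 1580 H3K4me3-only peaks under the width limit that had a neighbour at 1000 bp or less were narrower and scored lower as a whole. Solitary peaks had a median width of 1552.5 bp and a median score of 1491.3, against 957.5 bp (interval 938 to 975 bp) and 714.7 (interval 654.4 to 781.2) for the closely spaced peaks. The order was the same on all 10 chromosomes, for width and for score. At like width it was not. When solitary peaks were divided into 10 classes of nearly equal number by width, the solitary peaks had the higher median score in 5 classes and the closely spaced peaks in the other 5. Below 1000 bp the medians were 158.9 for solitary and 366.2 for closely spaced peaks (432 and 862 peaks). At 1000 to 1192 bp they were 399.0 for solitary and 1137 for closely spaced peaks (435 and 291 peaks). At 1553 to 1662 bp they were 1726 for solitary and 2379 for closely spaced peaks (431 and 45 peaks). At 1799 to 1976 bp they were 2405 for solitary and 1922 for closely spaced peaks (430 and 44 peaks). Closely spaced peaks of 1441 bp or more were few, from 29 to 50 in a class.

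Solitary peaks that shared bases with H3K27me3 were closer in width to the H3K4me3-only solitary peaks, though a little narrower. There were 980 of them under the width limit on the same chromosomes, with a median width of 1474 bp (interval 1431 to 1502 bp). Their median width was below that of the H3K4me3-only solitary peaks on all 10 chromosomes. So was their median score, which was also lower in all 10 width classes. At 1441 to 1552 bp, for example, the medians were 1318.6 for solitary peaks without H3K27me3 and 584.2 for those with it. Solitary H3K4me3-only peaks on the microchromosomes, numbered 11 and above, resembled those on chromosomes 1 to 10 in width. The medians were 1552.5 bp on chromosomes 1 to 10 and 1560.5 bp (interval 1530 to 1584 bp) over the 2206 peaks on microchromosomes. The median score was 1491.3 on chromosomes 1 to 10 and 1388.9 (interval 1336.3 to 1454.8) on microchromosomes. Whether any of these classes differ beyond the spread between embryos was not testable with 1 library.

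**Figure D2:**
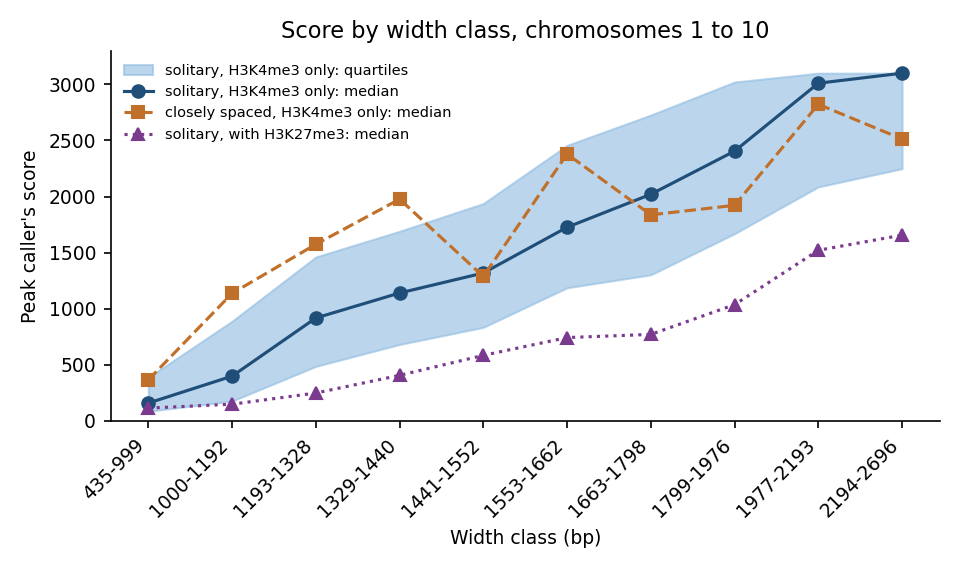
The peak caller's score against width in 10 classes of nearly equal number of solitary peaks on chromosomes 1 to 10. The blue line and band give the median and quartiles of solitary H3K4me3-only peaks, the orange line the median of closely spaced H3K4me3-only peaks, and the purple line that of solitary peaks with H3K27me3. The purple line stays below the blue one in all 10 classes, while the orange and blue lines cross.

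Solitary peaks were spread unevenly, with many short gaps and a few very long ones. The gap from 1 solitary peak to the next had a median of 65.7 kb (interval 61.9 to 69.2 kb; quartiles 24.2 and 186.5 kb) and a mean of 170.7 kb over 4326 gaps. Gaps of 10 to 50 kb made up 31.3% of the total and gaps of 100 to 500 kb 31.4%. Gaps under 5 kb were 5.73% (248), and gaps of 5 to 10 kb 5.34% (231). In length the order was otherwise. Gaps of 500 kb to 1 Mb were 5.71% of the number and 23.4% of the length, and gaps of 1 Mb or more were 2.36% of the number and 21.2% of the length. By number, most gaps held nothing else that was called. Neither mark had a peak in 60.9% of the gaps (2636; interval 59.5 to 62.4%), H3K27me3 lay in 29.2% and another H3K4me3 peak in 34.4%. The empty share fell with length, which in part follows from length alone, since a longer gap has more room for a peak. Neither mark had a peak in 244 of 248 gaps under 5 kb and in 1160 of 1352 gaps of 10 to 50 kb. At 100 to 500 kb this was 459 of 1358 gaps, and at 1 Mb or more 12 of 102. Per Mb of gap the longest gaps were the poorest in H3K27me3. There were 6.03 such peaks per Mb under 5 kb, 6.51 at 100 to 500 kb and 1.72 at 1 Mb or more. The rule leaves little room for another H3K4me3 peak in the shortest gaps.

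The smaller chromosomes carried solitary peaks more densely. Density was taken per Mb of chromosome, up to the end of its last peak of either mark. It was 5.28 per Mb on chromosome 1, 4.62 on 2, 5.55 on 3, 5.93 on 4 and 7.39 on 5. It was 6.21 per Mb on chromosome 6, 5.85 on 7, 8.04 on 8, 7.64 on 9 and 9.60 on 10. Over these 10 chromosomes density fell with span (Spearman correlation -0.92), as did the density of H3K27me3 peaks (-0.90). The median gap was longest on chromosome 2, at 93.9 kb (interval 80.5 to 109.3 kb), and shortest on chromosome 8, at 44.4 kb (interval 33.5 to 60.4 kb). Chromosome 10 was close to that of chromosome 8, at 46.1 kb (interval 33.5 to 60.3 kb), and the other 7 lay between 49.4 and 70.7 kb.

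**Figure D3:**
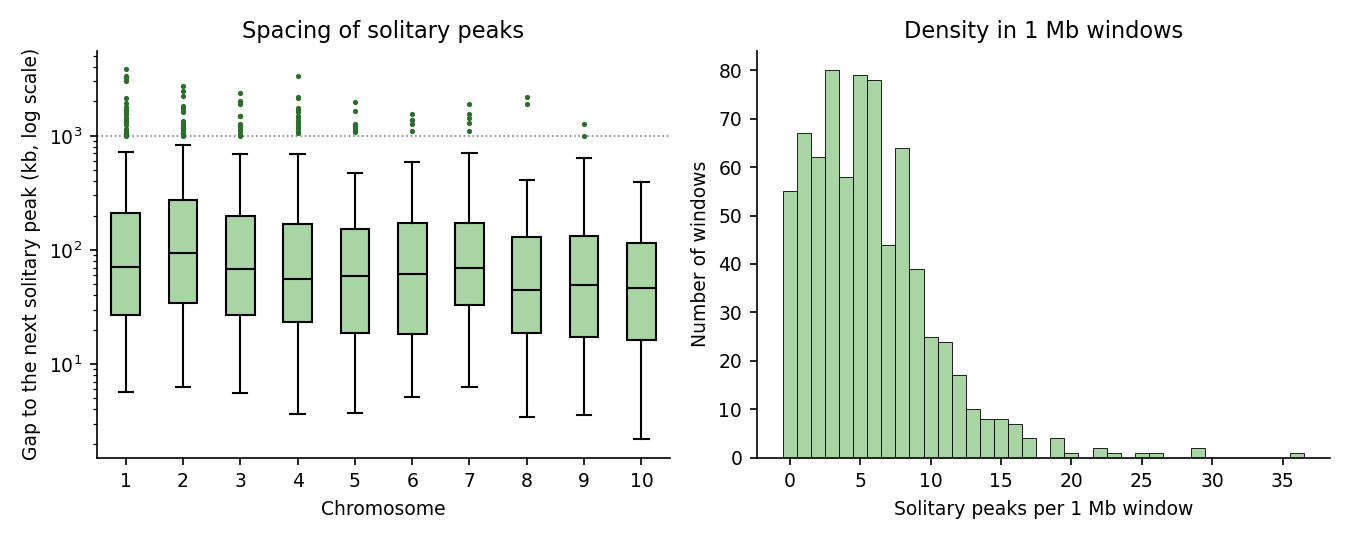
Left, gap in kb from each solitary peak to the next by chromosome on a log scale, with boxes for quartiles and medians, whiskers for the 5th and 95th percentiles, points for gaps of 1 Mb or more and a dotted line at 1 Mb. Right, number of solitary peaks in each of 742 full windows of 1 Mb. Gaps run from about 1 kb to 3.83 Mb, and windows hold between 0 and 36 solitary peaks.

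Counted in windows of 1 Mb, solitary peaks were found along most of the chromosomes at uneven density. The median window held 5 (quartiles 3 and 8), and 55 of 742 full windows held none (7.41%; interval 5.74 to 9.52%). The 74 windows with the most held 26.5% of the peaks counted, and the 371 with the fewest held 21.3%. The densest was the first Mb of chromosome 5, with 36 solitary peaks. It was followed by the windows from 49 to 50 Mb on chromosome 1 and from 1 to 2 Mb on chromosome 4, with 29 each, from 104 to 105 Mb on chromosome 3, with 26, and from 2 to 3 Mb on chromosome 4, with 25. H3K27me3 in these windows varied widely. The chromosome 4 window from 1 to 2 Mb also held 32 H3K27me3 peaks and that on chromosome 1 only 2, while the first Mb of chromosome 5 held 14. Median scores also varied among dense windows. Of 12 of the densest, 4 had a median above the 1491.3 of all solitary peaks and 8 one below it, from 544.0 to 2414.4. A window on chromosome 10 with 19 solitary peaks was tied with the last of them and left out.

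Chromosome ends held more solitary peaks than the interior on 8 of 10 chromosomes. Only full windows were counted, so the last, partial window of each chromosome was left out. With each chromosome weighted equally, windows within 5 Mb of an end had a mean of 8.11 solitary peaks and interior windows one of 6.20. Pooled over windows the interior mean was 5.42, but 426 of its 652 windows came from chromosomes 1 to 3. On chromosome 6 the order was turned, with 4.78 at the ends and 6.68 inside, and on chromosome 7 it was 4.56 and 6.22. H3K27me3 peaks were more numerous at the ends on 5 chromosomes and less so on the other 5. Weighted equally by chromosome, their mean was 7.59 at the ends and 5.77 inside. A higher mean at the ends was thus not particular to solitary peaks. The last window that was left out held 61 H3K27me3 peaks on chromosome 6. On chromosome 10 it held 23 H3K27me3 peaks and 25 solitary peaks, so the split by chromosome may depend on leaving it out. Across the 742 windows the numbers of solitary peaks and of H3K27me3 peaks had a Spearman correlation of 0.39. Gene density and assembly gaps are shared by both numbers, and their part in it was not tested.

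Stretches of 1 Mb or more without a solitary peak were most numerous on the largest chromosomes, which also have the most length to hold them. They were absent from the smallest. There were 102, with a median length of 1.35 Mb (quartiles 1.15 and 1.72 Mb) and a total of 156.6 Mb, or 21.0% of the span. Chromosome 1 had 29, chromosome 2 had 22, chromosomes 3 and 4 had 15 each and chromosome 5 had 7. Chromosomes 6 and 7 had 5 each, chromosomes 8 and 9 had 2 each, and chromosome 10 had none, its longest gap being 874.0 kb. As a share of span, the stretches took 26.7% of chromosome 4, 24.8% of chromosome 1, 21.3% of chromosome 2, 20.6% of chromosome 3 and 20.1% of chromosome 7. Chromosome 6 followed with 19.1%, chromosome 5 with 15.9%, chromosome 8 with 14.3% and chromosome 9 with 9.72%. Other H3K4me3 peaks divided many of these stretches. Bounded by any H3K4me3 peak, there were 49, over 9.01% of the span, with 20 on chromosome 1 (13.8% of it), 9 on chromosome 4 (13.7%), 7 on chromosome 3 (8.999%) and 6 on chromosome 2 (5.99%). Chromosomes 6, 7 and 8 had 2 each and chromosome 5 had 1, while chromosomes 9 and 10 had none. The part of chromosome 8 before its first solitary peak, which started at 1201515, was not counted as a stretch.

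The longest stretch ran on chromosome 1 from 155462547 to 159296390 (3.83 Mb) and held 5 other H3K4me3 peaks and 3 H3K27me3 peaks. The second, also on chromosome 1, ran from 161697536 to 165055868 (3.36 Mb) and held 5 of each. On chromosome 4 the stretch from 25014302 to 28350049 (3.34 Mb) held 4 other H3K4me3 peaks and 1 H3K27me3 peak. Chromosome 1 had 2 more above 3 Mb, from 148647330 to 151889983 (3.24 Mb) and from 92238559 to 95241706 (3.003 Mb). The first of these held 2 other H3K4me3 peaks and no H3K27me3, and the second held 6 and 2. The sixth, on chromosome 2 from 69445229 to 72176398 (2.73 Mb), held no peak of either mark. The next were a chromosome 2 stretch from 131770916 to 134233540 (2.46 Mb), a chromosome 3 stretch from 88088977 to 90451244 (2.36 Mb), a chromosome 2 stretch from 72881042 to 75105943 (2.22 Mb) and a chromosome 4 stretch from 39453675 to 41661858 (2.21 Mb). On the other chromosomes the longest were 1.99 Mb on chromosome 5 (45878623 to 47868360), 1.55 Mb on chromosome 6 (453115 to 1998195), 1.90 Mb on chromosome 7 (30883307 to 32781016), 2.18 Mb on chromosome 8 (15577549 to 17758783) and 1.27 Mb on chromosome 9 (6274820 to 7549398).

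Stretches without solitary peaks were also poor in the other peaks of both marks, though seldom empty. Inside them lay 1.999 other H3K4me3 peaks and 1.72 H3K27me3 peaks per Mb, against 5.09 and 5.51 per Mb in the rest of the 10 chromosomes. H3K27me3 peaks covered 0.348% of the stretches and 1.26% of the rest. The other H3K4me3 peaks inside the stretches overlapped H3K27me3 about as often as elsewhere, in 45.05% of 313 cases (interval 39.6 to 50.6%), against 44.5% of 3008 (interval 42.7 to 46.3%). At least 1 other H3K4me3 peak lay in 89 of the 102 stretches and at least 1 H3K27me3 peak in 80. Neither mark had a peak in 12 (11.8%; interval 6.86 to 19.4%). A few stretches were dense in H3K27me3. There were 16 such peaks in the chromosome 9 stretch from 6274820 to 7549398, which they covered over 3.09% of its length. A stretch on chromosome 4 from 41663240 to 43147432 also held 16, over 2.90%, and one on chromosome 3 from 107171114 to 108425275 held 15, over 3.52%. The last 2 were picked after their values were seen.

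**Figure D4:**
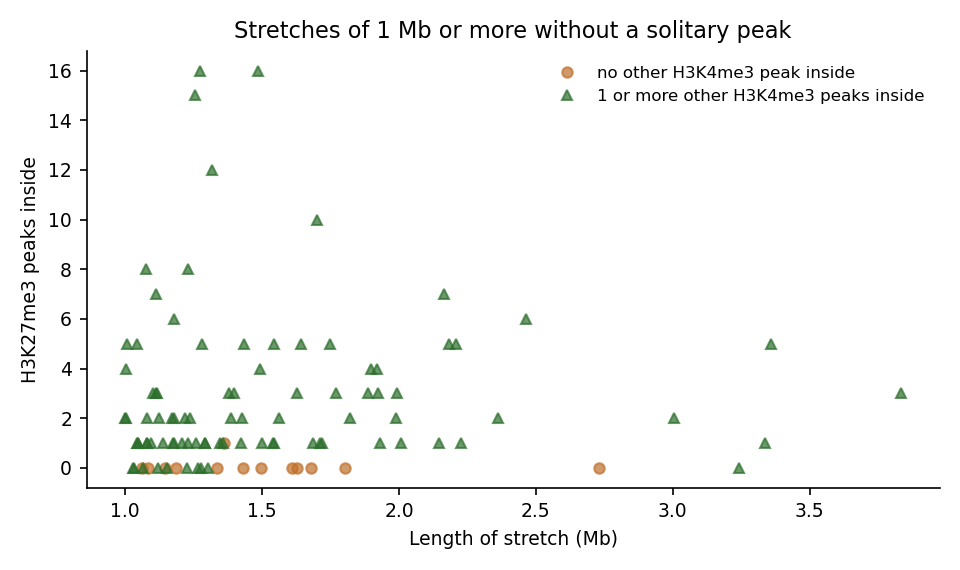
Number of H3K27me3 peaks against length in Mb for the 102 stretches of 1 Mb or more without a solitary peak. Circles are the 13 stretches with no other H3K4me3 peak and triangles the 89 with 1 or more. Most stretches hold few H3K27me3 peaks, 3 hold 15 or 16, and the 5 longest hold between 0 and 5.

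The solitary peaks that bordered these stretches were ordinary in width and score. These 199 peaks had a median width of 1558 bp (interval 1430 to 1672 bp) and a median score of 1521.2 (interval 1245.9 to 1763.1), against 1552.5 bp and 1491.3 over all solitary peaks. They lay farther from H3K27me3, at a median of 198.6 kb (interval 143.1 to 241.9 kb), against 105.4 kb over all solitary peaks. The stretches they border held 1.72 H3K27me3 peaks per Mb, against 5.51 in the rest, so this distance in part restates how they were picked. Stretches of 1 Mb or more lay on both sides of 5 solitary peaks, a group picked after the values were seen. The peak on chromosome 1 from 148645727 to 148647329 stood between stretches of 1.36 and 3.24 Mb, and that on chromosome 4 from 41661859 to 41663239 between 2.21 and 1.48 Mb. The others were on chromosome 7 from 32781017 to 32782677, on chromosome 4 from 71435376 to 71436956 and on chromosome 2 from 144037674 to 144038494. Their scores were 2086.29 and 716.47 for the first 2, and 2595.93, 855.65 and 85.64 for the other 3. Not all stood alone, since the stretches could hold other H3K4me3 peaks. The nearest lay 1.51 kb from the chromosome 4 peak at 71435376 and 37.4 kb from that at 41661859. On chromosomes 7, 2 and 1 it lay at 131.0, 644.5 and 1360.3 kb.

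Solitary peaks were usually next to another solitary peak. The nearest H3K4me3 peak of any kind lay at a median of 23.1 kb (interval 21.8 to 23.9 kb; quartiles 9.74 and 49.6 kb). It was another solitary peak for 70.2% of them (interval 68.8 to 71.5%), a peak with H3K27me3 for 15.3%, a closely spaced peak for 11.1% and a broad H3K4me3-only peak for 3.37%. Among all H3K4me3 peaks on these chromosomes those kinds made up 56.6, 19.3, 20.6 and 3.41%. Closely spaced peaks come several to a place, so these shares cannot be set against each other directly. Scores of consecutive solitary peaks were almost unrelated, with a Spearman correlation of 0.06 over 4326 neighbours. It was 0.14 over the 479 neighbours within 10 kb and 0.02 over the 1707 more than 100 kb apart.

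Score and width varied with the distance to the nearest H3K4me3 peak, and solitary peaks with the nearest neighbours scored lowest up to a distance of 500 kb. The 238 solitary peaks with a neighbour at 1 to 2 kb had a median score of 849.7 (interval 723.6 to 976.0) and a median width of 1255 bp (interval 1184 to 1327 bp). At 2 to 5 kb the median score was 1198.6, at 5 to 10 kb 1438.2, and at 10 to 50 kb 1633.2 (interval 1567.1 to 1698.6; 2156 peaks). It reached 1670.4 at 50 to 100 kb (interval 1539.2 to 1861.3) and was 1393.9 at 100 to 500 kb (interval 1215.5 to 1558.3). The lower score of peaks with a neighbour at 2 kb or less held in each of 4 width classes. From 1271 to 1552 bp the medians were 912.5 with such a neighbour and 1193.1 without, and from 1553 to 1884 bp 1471.4 and 1989.5. Up to 1270 bp they hardly differed, at 330.4 and 342.0. From narrow to wide, the 4 classes held 122, 49, 34 and 33 peaks with such a neighbour, and width was matched only roughly.

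Only 11 solitary peaks lay more than 500 kb from any other H3K4me3 peak, and 5 of these had scores near the bottom of the scale. Their median score was 136.0 (interval 60.9 to 2588.1), and 5 of the 11 scored below 100 (45.5%; interval 21.3 to 72.0%), against 4.96% of all solitary peaks. The most isolated was the chromosome 1 peak from 148645727 to 148647329, 1360.3 kb from its neighbour, with a score of 2086.29 and an H3K27me3 peak only 3.20 kb away. The second, on chromosome 1 from 100030177 to 100032758, was 906.8 kb from its neighbour and scored 3100. The third, 811.9 kb from its neighbour, lay on chromosome 2 from 82286453 to 82287271 and scored 135.99. Chromosome 4 held the next 2. They were the peak from 90214750 to 90215558, 811.5 kb from its neighbour with a score of 78.7, and the peak from 5933942 to 5935430, 741.6 kb from its neighbour with a score of 2588.11. The chromosome 4 peak at 90214750 was the last peak of either mark on its chromosome.

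Few solitary peaks lay within 5 kb of H3K27me3, and the rule required only the lack of a shared base. These chromosomes held 4.72 H3K27me3 peaks per Mb, and the distance from positions without H3K4me3 was not computed. The median distance between edges was 105.4 kb (interval 100.2 to 111.3 kb; quartiles 42.1 and 229.8 kb). Up to 1 kb lay 44 peaks (1.01%), and up to 5 kb 177 (4.08%; interval 3.53 to 4.71%). The largest class, from 100 to 500 kb, held 1925 peaks (44.4%). Beyond 500 kb lay 313 (7.22%; interval 6.49 to 8.03%), of which 38 were over 1 Mb away. Closely spaced H3K4me3-only peaks on the same chromosomes had nearly the same median, 104.7 kb (interval 96.8 to 114.4 kb). They lay within 5 kb of H3K27me3 more often, in 10.3% of cases (interval 8.91 to 11.9%). Closely spaced peaks come several to a place, so 1 H3K27me3 peak can count for several of them and this interval is too narrow. The 261 H3K4me3-only peaks at or over the width limit had a median of 150.2 kb (interval 120.9 to 181.1 kb). On microchromosomes the median for solitary H3K4me3-only peaks was 49.2 kb and the share within 5 kb 8.02% (interval 6.96 to 9.23%).

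Distance to H3K27me3 varied between chromosomes, with medians from 49.2 to 143.1 kb. The median was 140.8 kb on chromosome 1, 141.3 kb on 2, 122.4 kb on 3, 79.3 kb on 4 and 84.4 kb on 5. It was 78.8 kb on chromosome 6, 143.1 kb on 7, 79.0 kb on 8, 78.9 kb on 9 and 49.2 kb on 10. Chromosome 10 had the lowest median, with an interval of 39.1 to 57.8 kb, and the intervals of the others began at 58.3 kb or higher. Solitary peaks often shared a nearest H3K27me3 peak, 1487 serving all 4336, so these intervals are likely too narrow to rank close chromosomes. Chromosome 7, with an interval of 114.3 to 180.9 kb, was as far from H3K27me3 as chromosomes 1 and 2, although it is much shorter than either. It had 5.77 H3K27me3 peaks per Mb, against 3.003 and 3.50 on chromosomes 1 and 2. The share within 5 kb was highest on chromosome 6, at 9.22% (20 of 217; interval 6.05 to 13.8%), and lowest on chromosome 1, at 2.52% (26 of 1030; interval 1.73 to 3.67%). More than 500 kb from H3K27me3 were 11.7% of solitary peaks on chromosome 1 (interval 9.83 to 13.8%) and 11.3% on chromosome 2, but 0.922% on chromosome 6 and none of 191 on chromosome 10 (upper limit 1.97%).

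**Figure D5:**
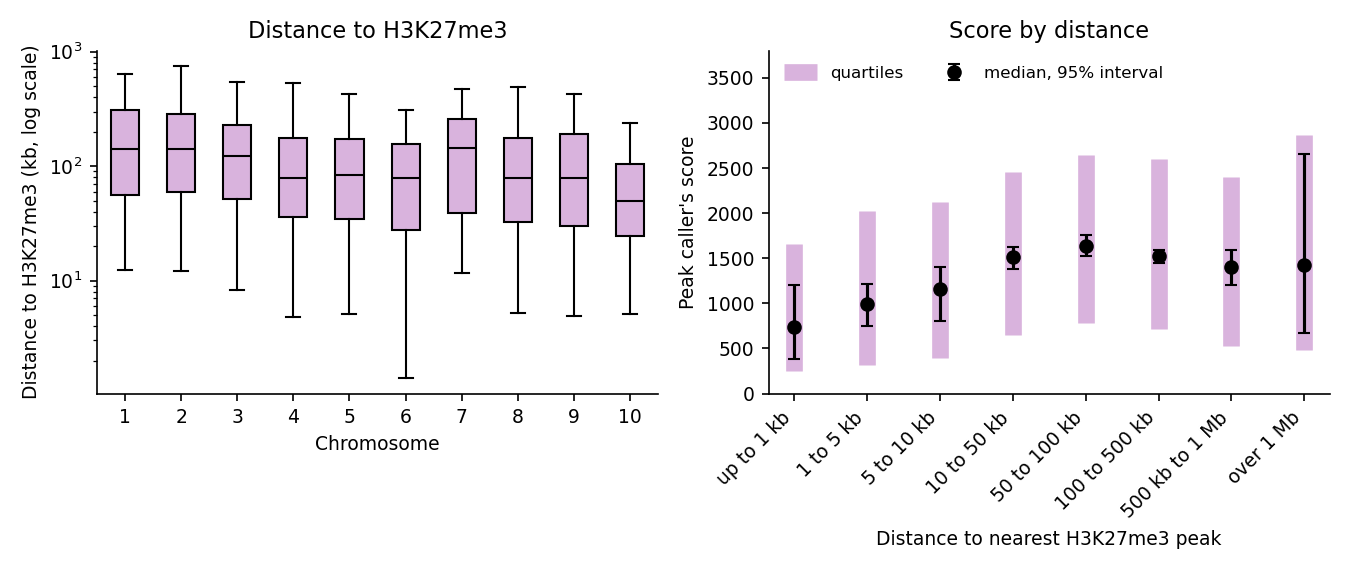
Left, distance in kb from each solitary peak to the nearest H3K27me3 peak by chromosome on a log scale, with boxes for quartiles and medians and whiskers for the 5th and 95th percentiles. Right, the peak caller's score by distance class, with bars for quartiles and points for the median and its 95% interval. Chromosome 10 has the shortest median, 49.2 kb, and the median score is 740.9 up to 1 kb and 1640.2 at 50 to 100 kb.

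Solitary peaks close to H3K27me3 had lower scores. The 177 within 5 kb had a median score of 900.8 (interval 733.8 to 1162.8) and a median width of 1333 bp (interval 1252 to 1431 bp). The other 4159 had medians of 1521.2 (interval 1464.0 to 1575.2) and 1561 bp (interval 1546 to 1578 bp). The median score was lower within 5 kb on all 10 chromosomes and the median width on 9, the exception being chromosome 8. These medians rest on few peaks within 5 kb, from 7 on chromosome 7 to 28 on chromosome 4. By distance the median score was 740.9 up to 1 kb, 996.0 at 1 to 5 kb, 1163.1 at 5 to 10 kb, 1510.9 at 10 to 50 kb and 1640.2 at 50 to 100 kb. Farther out there was no further increase, with 1520.2 at 100 to 500 kb, 1402.9 at 500 kb to 1 Mb and 1422.8 beyond. At like width the order held in part. In 3 of 4 width classes the peaks within 5 kb scored lower, with medians of 2366.1 and 3018.3 from 1885 bp upwards for peaks within 5 kb and beyond. From 1271 to 1552 bp the order was turned, at 1273.5 within 5 kb and 1178.3 beyond. The 4 classes, from narrow to wide, held only 78, 44, 23 and 32 peaks within 5 kb. Each class spans a range of widths, so width was matched only roughly. Peaks within 5 kb of H3K27me3 also had a nearer H3K4me3 neighbour, at a median of 5.51 kb, against 23.7 kb for the others. Over all 4336 peaks the Spearman correlation of distance with score was only 0.03.

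The 5 solitary peaks closest to H3K27me3 were separated from it by 53 to 104 bp. The nearest, on chromosome 2 from 131625155 to 131626550, was 53 bp from an H3K27me3 peak of 1471 bp. The next were 59 bp away on chromosome 8 (14931780 to 14933526), 75 bp on chromosome 5 (74453 to 75855), 79 bp on chromosome 2 (118992680 to 118993784) and 104 bp on chromosome 7 (21683192 to 21683899). The 5 H3K27me3 peaks were 747 to 1845 bp wide, and none overlapped H3K4me3. The rule left little room for such an overlap, since a solitary peak has no other H3K4me3 peak within 1000 bp. At such distances a small shift of a called edge would have removed the peak from the set. The peaks farthest from H3K27me3 were on chromosomes 1 and 2. The farthest lay on chromosome 1 from 161607188 to 161608715, at 2.29 Mb, with a score of 2120.56. The next was 2.20 Mb away, on chromosome 1 from 161695798 to 161697535, and bordered the second longest stretch. The third, on chromosome 1 from 95241707 to 95243820, was 2.06 Mb away and bordered the fifth longest. They were followed by a peak on chromosome 2 from 72176399 to 72177363, at 2.03 Mb, which bordered the sixth longest, and by one on chromosome 1 from 161176669 to 161178280, at 1.97 Mb.

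The H3K27me3 peaks nearest to solitary peaks often carried H3K4me3 themselves. The 4336 solitary peaks had 1487 H3K27me3 peaks as their nearest, out of 3526 on these chromosomes. Of those 1487, 906 overlapped an H3K4me3 peak (60.9%; interval 58.4 to 63.4%), against 582 of the 2039 others (28.5%; interval 26.6 to 30.5%). Their median widths were 1727 and 1585 bp and their median scores, within the H3K27me3 list, 248.8 and 258.6. An H3K27me3 peak with others on both sides before the next solitary peak cannot be the nearest. Peaks inside clusters therefore always fell among the others, and a gap on chromosome 3 held 32 H3K27me3 peaks. Whether the shares with H3K4me3 differ at like position in a cluster was not tested. The share with H3K4me3 changed with distance. It was 7 of 44 for H3K27me3 peaks up to 1 kb from the solitary peak (15.9%; interval 7.93 to 29.4%), 46.5% at 1 to 5 kb, 60.6% at 10 to 50 kb and 66.9% at 100 to 500 kb. Up to 1 kb an overlap is limited by the rule, since a solitary peak has no other H3K4me3 peak within 1000 bp. An H3K27me3 peak nearest to solitary peaks at several distances was counted in each of those classes, so the classes share peaks. The H3K27me3 peak with the most was nearest to 23 solitary peaks, on chromosome 1 from 6532395 to 6534627.

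Solitary peaks often followed each other without H3K27me3 between them. H3K27me3 peaks divided them into 1273 runs with a median of 2 solitary peaks. Runs ended where a gap held H3K27me3, as 29.2% of gaps did, or at a chromosome end. The lengths of runs thus in part restate that share, and a departure from it was not tested. A run was of 1 peak in 392 cases (30.8%; interval 28.3 to 33.4%). Runs of 5 or more held 53.9% of all solitary peaks (2339; interval 52.5 to 55.4%), and 65 runs of 10 or more held 19.4% (843; interval 18.3 to 20.6%). The most numerous run had 25 solitary peaks over 1.18 Mb, on chromosome 1 from 49367578 to 50550033. Next were 3 runs of 22. They spanned 2.76 Mb of chromosome 4 (17609902 to 20364906), 1.76 Mb of chromosome 1 (53840572 to 55602520) and 1.11 Mb of chromosome 5 (15205650 to 16312821). A run of 20 spanned 869.5 kb of chromosome 2 (472021 to 1341530). Their median scores were 1660.0, 1306.2, 1399.0, 2066.2 and 653.6, so that long runs were not uniform in score. In length the longest was a run of 6 peaks on chromosome 1 from 148645727 to 152708305 (4.06 Mb), which took in the fourth longest stretch. Median scores were 1454.1 for peaks in runs of 1 (interval 1357.1 to 1610.5), 1557.8 in runs of 2 to 4, 1478.9 in runs of 5 to 9 and 1443.4 in runs of 10 or more (interval 1336.0 to 1527.9). These intervals overlapped.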

How the data were processed

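ChIP-seq peak lists of H3K4me3 and H3K27me3, 1 library each, were used. The score of each peak is the peak caller's own value as the authors deposited it, on a scale the files do not name. MACS in Galaxy made the peaks, per the file headers. The submitters' processing notes name BWA, MACS2 and galGal4 but no versions. The control used in peak calling, filters and depth are not given in the sources used here.

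Peaks were compared with Python 3.11.15, NumPy 2.4.6, pandas 2.3.3 and SciPy 1.17.1. A shared base means an overlap of at least 1 bp. Gaps and distances run from edge to edge on a chromosome, and stretches lie between consecutive solitary peaks. Starts below 0 were set to 0 (183 H3K4me3 peaks, 0 on chromosomes 1 to 10). The counting was tested on simulated data. The peaks, classes and alternatives were chosen with earlier results of these data known. Named regions are the extremes of score, width, gap, distance, stretch, window and run length, and the peaks at each limit of the rule. Classes of width, score and distance, and the chromosome ends, were set after the data were seen. With 1 library per mark no test was made.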

Additional observations from a re-analysis of the deposited data

How the results depend on the processing

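No paired analysis was possible because each mark has 1 library. Of 77 values recomputed under alternatives, 48 stayed within the interval of the reported value (for counts, within 1.5 times it) and 29 did not. The number of solitary peaks, 4336, ranged from 3185 to 4786. The values outside, as median width, score and gap where they moved, were 1510 bp, 1392 and 58.5 kb with a neighbour limit of 500 bp, and 71.8 kb (gap) with 2 kb. With 5 kb they were 1576 bp, 1579.7 and 83.5 kb, with 17.3% at the top score and 111.4 kb to H3K27me3. Without a width limit they were 1582.5 bp and 1575.0, with 19.0% at the top score. Below 2000 bp they were 1448 bp, 1230.6 and 83.9 kb, with 7.57% at the top. With both lists kept only from their median score upwards the values were 1712 bp, 2188.9 and 96.3 kb, with 25.2% at the top and 181.9 kb to H3K27me3. Scores of 100 or more gave 1570.0 bp and 132.4 kb to H3K27me3. Merging H3K4me3 within 1 kb gave 1608 bp and 59.5 kb. Without scores of 3100 and above the median score was 1215.3. Stretches numbered 102, or 49 when bounded by any H3K4me3 peak, 349 from 0.5 Mb upwards and 14 from 2 Mb upwards. Depth is unknown, and assembly gaps were not known for any stretch.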
